A study of Saccharomyces cerevisiae with 18 samples.

Results

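Genes for the enzymes that load amino acids onto tRNA and for the factors that start and extend protein synthesis were followed in budding yeast exposed to nonylphenol. The set held 39 of the 5449 Saccharomyces cerevisiae genes measured, chosen by symbol from a list made with earlier results of these data known. It comprised 18 aminoacyl-tRNA synthetases, 17 initiation factors and 4 elongation factors. All 39 of 39 symbols were matched, each to 1 probe set of the type that the array design assigns to a single transcript.

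Nonylphenol is an alkylphenol, a breakdown product of industrial surfactants. Haploid strain BY4742 was grown in YPD, a rich medium, and at mid-exponential phase received nonylphenol dissolved in ethanol at 1 mg/L or 5 mg/L. Control cultures received the same volume of ethanol, so every culture was exposed to the solvent. Cells were collected after 120 or 180 min, which gave 6 groups of 3 single-colour Affymetrix arrays that the labels call biological replicates. The design text names the response to 2 concentrations as the question.

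Aminoacyl-tRNA synthetases join each amino acid to its own tRNA and so supply the ribosome. In initiation, the factor eIF2 carries the initiator tRNA to the small ribosomal subunit, eIF2B recharges eIF2 with GTP, eIF3 holds the assembly together, and eIF4G ties it to the cap of the mRNA. In elongation, eEF1A delivers each loaded tRNA, eEF1B recharges eEF1A with GTP, and eEF3 is an ATPase that fungi need for every round. Yeast in rich medium transcribes these genes strongly, and many of them are known to be tuned together with growth rate.

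Levels are the deposited log2 signals, so a difference of 1 is a doubling. Probe sets differ in how strongly they bind, so a level on 1 probe set is no measure of abundance against another, and levels are used across probe sets only to place them against the background and in a band of brightness. The 5498 S. cerevisiae probe sets had a median of 7.93, and probe sets of another yeast species put the background at 1.86. Group means of the 39 genes lay between 7.995 and 12.44, all above that background, and their SD within a group had a median of 0.05 and a maximum of 0.31. Replicate arrays correlated at 0.994 to 0.999 over the S. cerevisiae probe sets. The alpha-specific genes SAG1 and STE3 stood at 11.58 and 10.02 in the 120 min control, the a-specific STE2, MFA1, AGA2 and BAR1 at 2.15 to 4.43, and the deleted markers URA3, LYS2 and LEU2 at 0.95 to 3.03. At 5 mg/L and 120 min STE3 stood at 9.48, MFA1 at 5.21, AGA2 at 5.12 and BAR1 at 5.82, with 9.60, 5.08, 4.73 and 5.79 at 180 min, while over all groups SAG1 ran from 11.42 to 11.68 and STE2 from 4.32 to 4.60. Every array read the RNA of a whole culture, in which fewer cells holding a transcript and less of it per cell cannot be told apart.

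Probe sets for the manufacturer's poly-A control transcripts read higher at 5 mg/L than in the control, by 0.78 (SE 0.25) at 120 min and 0.24 (SE 0.25) at 180 min. At 1 mg/L they differed from the control by -0.05 and 0.05. Centring each array on those controls shifts every gene of a comparison by 1 common amount, at 5 mg/L against the control a downward one, so all directions below are relative to the deposited scaling. What moved the poly-A signals was not tested.

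At 5 mg/L the translation genes called lower outnumbered those called higher at both times. By limma with Benjamini-Hochberg adjustment over all 5498 probe sets at 0.05, 27 of 39 were lower than the control at 120 min, 2 were higher and 10 were not called. Over all probe sets 32.7% were called lower and 25.4% higher at that time. At 180 min 19 were lower, 4 higher and 16 not called, beside 34.3% lower and 27.1% higher over all probe sets. Counts of the classes and complexes of the 39 genes given below are to be read against these shares. The median difference of the 39 genes was -0.25 at 120 min and -0.14 at 180 min, and that of all probe sets was -0.04 at both times. SEs of the 39 differences ran from 0.04 to 0.10 log2, from a spread pooled over all 18 arrays. With poly-A scaling, where the SE of a gene such as NIP1 was 0.27, 37 genes were lower at 120 min, 2 at 180 min and none was higher.

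Translation genes are bright on these arrays, so probe sets of like brightness were described as well. Among the 660 probe sets with a 120 min control level over 10, 39.5% were called lower and 15.6% higher, and their median difference was -0.11. Of the 31 translation genes above that level, 20 were called lower. At 180 min the 663 such probe sets had 44.5% lower, 19.8% higher and a median of -0.12, and 15 of the 30 translation genes among them were lower. The band was set by the same control arrays that enter the difference, so it favours probe sets that read high in the control. TIF5, with control means of 10.15 at 120 min and 9.99 at 180 min, was in the band at 120 min alone. These shares are descriptions and are tilted towards lower by that choice.

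The 120 and 180 min differences come from separate arrays that share 1 estimate of spread. All 19 genes lower at 180 min were also lower at 120 min, which is 70.4% of the 27 lower at 120 min. The same overlap was not counted over all probe sets, so it is not read as particular to these genes. The 8 lower at 120 min but not called at 180 min were GCD1, GCD2, GRS1, HTS1, MES1, SES1, TEF4 and TIF4631. Across the 39 genes the differences at the 2 times correlated with a Pearson r of 0.90 and a Spearman rho of 0.87, beside a Pearson r of 0.84 over all 5498 probe sets. Genes on 1 array are not independent replicates, and these values are descriptions.

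**Figure D1:**
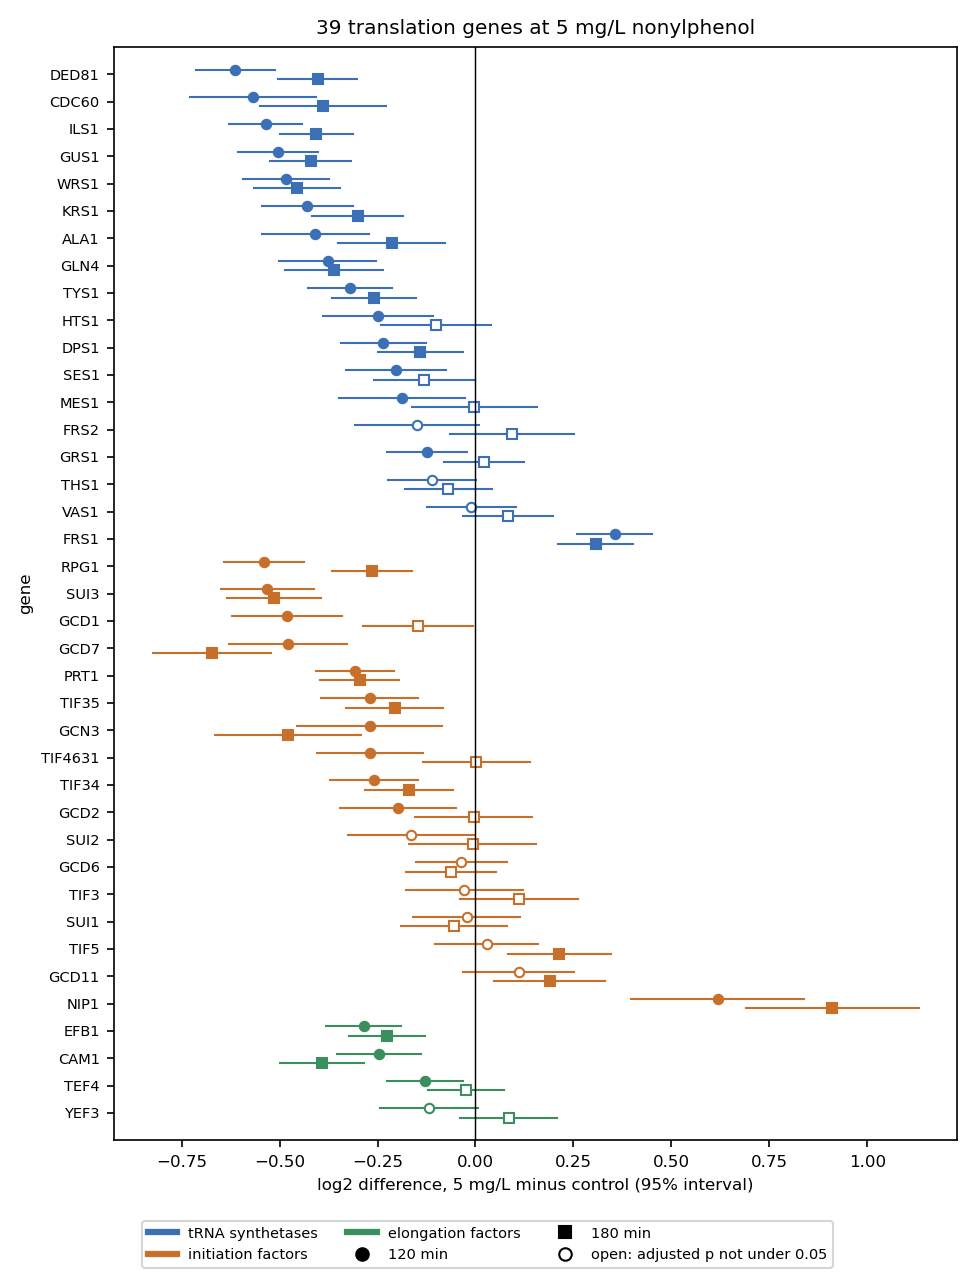
Log2 difference between 5 mg/L nonylphenol and the ethanol control for each of the 39 genes (vertical axis), at 120 min (circles) and 180 min (squares), with 95% intervals from limma; open symbols were not called, and blue, orange and green mark synthetases, initiation factors and elongation factors. Most symbols lie left of 0, down to -0.67 for GCD7 at 180 min, while NIP1 reaches 0.62 and 0.91 and FRS1 0.36 and 0.31. With poly-A scaling the 120 min values of NIP1 and FRS1 change sign, and neither gene is called at either time.

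Of the 18 synthetases, 14 were lower at 5 mg/L after 120 min, 1 was higher and 3 were not called, with a median difference of -0.29. After 180 min 10 were lower, 1 higher and 7 not called, with a median of -0.18. Over all probe sets 32.7% were lower at 120 min and 34.3% at 180 min. Measured per array against the mean of the 120 min control, the median synthetase lay at -0.31, -0.26 and -0.33 on the 5 mg/L arrays of 120 min and at -0.30, -0.33 and -0.28 on those of 180 min. On the 180 min control arrays it lay at -0.07, -0.11 and -0.11. By this median the 5 mg/L arrays of both times lay below every 180 min control array.

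DED81, CDC60 and ILS1 had the 3 largest differences among the synthetases at 120 min. DED81 encodes asparaginyl-tRNA synthetase. The 120 min arrays of DED81 read 11.60, 11.65 and 11.66 in the control, 11.50, 11.61 and 11.64 at 1 mg/L and 10.96, 11.01 and 11.09 at 5 mg/L. Its 180 min arrays read 11.52, 11.52 and 11.53 in the control, 11.49, 11.55 and 11.56 at 1 mg/L and 11.11, 11.12 and 11.13 at 5 mg/L. All 5 mg/L arrays lay below all control and 1 mg/L arrays of their time. DED81 was 1.53-fold lower at 120 min (log2 -0.61, SE 0.05, adjusted p = 1.64e-08) and 1.32-fold lower at 180 min (log2 -0.40, SE 0.05, adjusted p = 1.96e-06).

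CDC60 encodes leucyl-tRNA synthetase. Arrays of CDC60 at 120 min read 11.02, 10.95 and 10.996 in the control, 10.89, 10.85 and 11.01 at 1 mg/L and 10.36, 10.53 and 10.37 at 5 mg/L. At 180 min they read 10.88, 10.84 and 10.81 in the control, 11.03, 10.78 and 10.84 at 1 mg/L and 10.39, 10.36 and 10.62 at 5 mg/L. No 5 mg/L array reached a control or 1 mg/L array of its time. The differences from the control were -0.57 at 120 min and -0.39 at 180 min, with adjusted p-values of 7.99e-06 and 0.000326. ILS1 encodes isoleucyl-tRNA synthetase. At 120 min ILS1 read 11.43, 11.42 and 11.45 in the control, 11.42, 11.35 and 11.44 at 1 mg/L and 10.89, 10.89 and 10.92 at 5 mg/L. The arrays of 180 min read 11.36, 11.38 and 11.35 in the control, 11.46, 11.37 and 11.35 at 1 mg/L and 10.94, 10.96 and 10.98 at 5 mg/L. The 5 mg/L arrays again formed the lower group at each time, with no overlap. ILS1 fell by 0.54 at 120 min and by 0.41 at 180 min (adjusted p = 2.9e-08 and 7.17e-07).

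**Figure D2:**
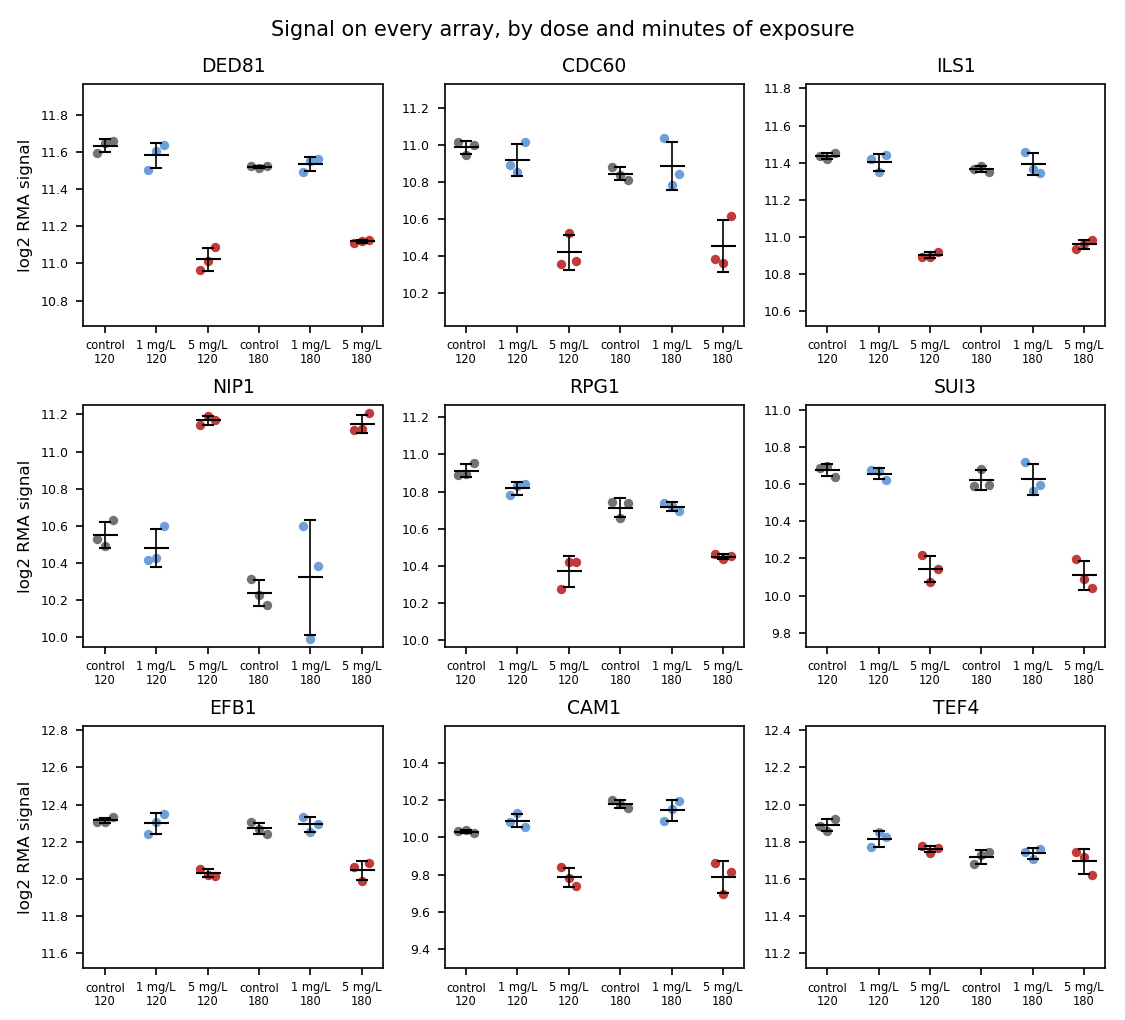
Log2 signal (vertical axes, each panel spanning 1.3 log2 units) of DED81, CDC60, ILS1, NIP1, RPG1, SUI3, EFB1, CAM1 and TEF4 on every array, by group (horizontal axis): grey control, blue 1 mg/L and red 5 mg/L nonylphenol, at 120 and 180 min; points are arrays and bars give the mean with SD (n = 3). In the deposited scaling the red points of NIP1 lie above, and those of 7 other genes below, all other points of their time, while those of TEF4 overlap the 1 mg/L points.

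The remaining synthetases are given by their means in the order control, 1 mg/L and 5 mg/L. Those lower at both times, after the 3 genes above, numbered 7. GUS1, the glutamyl enzyme, averaged 11.79, 11.81 and 11.28 at 120 min and 11.79, 11.82 and 11.37 at 180 min. WRS1, the tryptophanyl enzyme, averaged 9.89, 9.85 and 9.41 at 120 min and 9.80, 9.83 and 9.34 at 180 min. KRS1, the lysyl enzyme, averaged 11.30, 11.27 and 10.87 at 120 min and 11.12, 11.14 and 10.82 at 180 min. The 5 mg/L differences of these 3 genes lay between -0.50 and -0.30. GLN4, the glutaminyl enzyme, averaged 9.76, 9.79 and 9.38 at 120 min and 9.69, 9.78 and 9.32 at 180 min. TYS1, the tyrosyl enzyme, averaged 11.18, 11.13 and 10.86 at 120 min and 11.10, 11.12 and 10.84 at 180 min. ALA1, which makes the alanyl enzyme of cytosol and mitochondria, averaged 10.88, 10.88 and 10.48 at 120 min and 10.67, 10.73 and 10.46 at 180 min. Of these, ALA1 differed from the control by -0.41 at 120 min and -0.21 at 180 min. DPS1, the aspartyl enzyme, averaged 11.40, 11.40 and 11.17 at 120 min and 11.33, 11.34 and 11.19 at 180 min. DPS1 had the smallest of the 7 differences at both times, -0.24 at 120 min and -0.14 at 180 min.

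The synthetases lower at 120 min alone were GRS1, HTS1, MES1 and SES1. GRS1, which makes the glycyl enzyme of cytosol and mitochondria, averaged 11.59, 11.55 and 11.47 at 120 min and 11.52, 11.54 and 11.54 at 180 min. HTS1, the histidyl enzyme of both compartments, averaged 10.50, 10.49 and 10.25 at 120 min and 10.34, 10.40 and 10.24 at 180 min. The 120 min differences of these genes were small, -0.12 for GRS1 and -0.25 for HTS1. MES1, the methionyl enzyme, averaged 10.87, 10.83 and 10.68 at 120 min and 10.68, 10.78 and 10.68 at 180 min. SES1, the seryl enzyme, averaged 11.08, 11.02 and 10.88 at 120 min and 11.001, 11.07 and 10.87 at 180 min. Their 180 min differences were 0.00 for MES1 and -0.13 for SES1, and the difference between the times was called for none of the 4. The 120 min call of GRS1 was lost without control replicate 1 or 3 or 5 mg/L replicate 1 or 3 (adjusted p 0.0614 to 0.127), and that of MES1 without any control replicate or without 5 mg/L replicate 1 or 3 (0.0573 to 0.18). Renewed quantile normalization ended both calls too (adjusted p = 0.302 and 0.1035), and the fit of the compared arrays alone ended that of GRS1 (0.0735). The 180 min call of DPS1 was lost without control replicate 1 or 5 mg/L replicate 1 or 3 (0.0633 to 0.103).

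FRS1 was the 1 gene of the 18 synthetases called higher, at both times and in the deposited scaling. It encodes the beta subunit of phenylalanyl-tRNA synthetase, an enzyme built from alpha and beta chains, and FRS2 encodes the alpha subunit. Both were chosen for array values after their values were seen. The 120 min arrays of FRS1 read 10.65, 10.75 and 10.79 in the control, 10.67, 10.74 and 10.75 at 1 mg/L and 11.10, 11.06 and 11.10 at 5 mg/L. After 180 min the values were 10.73, 10.73 and 10.71 in the control, 10.76, 10.75 and 10.79 at 1 mg/L and 11.05, 11.01 and 11.04 at 5 mg/L. Every 5 mg/L array lay above every other array of its time. FRS1 rose 1.28-fold at 120 min (log2 0.36, SE 0.05, adjusted p = 4.51e-06) and 1.24-fold at 180 min (log2 0.31, adjusted p = 2.11e-05). With poly-A scaling its 120 min difference was -0.43, and FRS1 was called at neither time.

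Arrays of FRS2 at 120 min read 10.29, 10.38 and 10.38 in the control, 10.11, 10.34 and 10.36 at 1 mg/L and 10.12, 10.27 and 10.21 at 5 mg/L. Its 180 min arrays read 10.30, 10.12 and 10.12 in the control, 10.30, 10.16 and 10.34 at 1 mg/L and 10.21, 10.25 and 10.36 at 5 mg/L. For FRS2 the groups overlapped at 180 min, and at 120 min the 5 mg/L arrays lay below the control but among the 1 mg/L arrays. Its differences were -0.15 at 120 min and 0.09 at 180 min (95% intervals -0.31 to 0.01 and -0.07 to 0.25), and neither was called. The difference between the 2 subunits was not tested. THS1, the threonyl enzyme, averaged 11.69, 11.71 and 11.58 at 120 min and 11.62, 11.69 and 11.55 at 180 min. VAS1, which makes the valyl enzyme of cytosol and mitochondria, averaged 11.06, 11.04 and 11.05 at 120 min and 10.92, 10.98 and 11.01 at 180 min. Neither was called against the control, and their intervals at 120 min ran from -0.22 to 0.00 for THS1 and from -0.12 to 0.10 for VAS1.

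Of the 17 initiation factors, 10 were lower at 5 mg/L after 120 min, 1 was higher and 6 were not called, with a median difference of -0.26. After 180 min 7 were lower, 3 higher and 7 not called, with a median of -0.06. The 180 min counts are not far from the 34.3% lower and 27.1% higher over all probe sets. At 120 min those shares were 32.7% and 25.4%. In the deposited scaling the called subunits of 1 complex went both ways in eIF3 at both times and in eIF2 at 180 min. At 120 min the eIF2 estimates also had both signs, from -0.53 to 0.11, with 1 gene called. With poly-A scaling no initiation factor was called higher.

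All 5 eIF3 genes were called at both times, 4 lower and 1 higher in the deposited scaling. The gene higher was NIP1, which encodes eIF3c. At 120 min NIP1 read 10.53, 10.49 and 10.63 in the control, 10.41, 10.43 and 10.60 at 1 mg/L and 11.14, 11.19 and 11.17 at 5 mg/L. At 180 min they read 10.31, 10.23 and 10.17 in the control, 10.60, 9.99 and 10.38 at 1 mg/L and 11.12, 11.12 and 11.21 at 5 mg/L. Those of 5 mg/L lay above every other array at both times, and the 1 mg/L arrays at 180 min were the most spread of any group, with an SD of 0.31. NIP1 was 1.53-fold higher at 120 min (log2 0.62, SE 0.10, adjusted p = 8.56e-05) and 1.88-fold higher at 180 min (log2 0.91, adjusted p = 1.43e-06). With poly-A scaling its 120 min difference was -0.16, and NIP1 was called at neither time. Its control mean fell from 10.55 to 10.24 between the times while the 5 mg/L mean stood at 11.17 and 11.15.

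RPG1 encodes eIF3a, the scaffold subunit. The 120 min arrays of RPG1 read 10.89, 10.90 and 10.95 in the control, 10.78, 10.83 and 10.84 at 1 mg/L and 10.28, 10.42 and 10.42 at 5 mg/L. The arrays of 180 min read 10.75, 10.66 and 10.74 in the control, 10.74, 10.72 and 10.69 at 1 mg/L and 10.46, 10.44 and 10.45 at 5 mg/L. Those of 5 mg/L lay below all others of their time. Its differences were -0.54 at 120 min and -0.26 at 180 min (SE 0.05, adjusted p = 8.58e-08 and 0.000182). PRT1, which encodes eIF3b, averaged 10.37, 10.38 and 10.06 at 120 min and 10.28, 10.33 and 9.99 at 180 min. TIF34, which encodes eIF3i, averaged 11.05, 11.02 and 10.79 at 120 min and 10.93, 10.93 and 10.76 at 180 min. TIF35, which encodes eIF3g, averaged 10.77, 10.73 and 10.50 at 120 min and 10.59, 10.62 and 10.39 at 180 min. These 3 genes were lower at both times, by 0.31, 0.26 and 0.27 at 120 min. The 180 min call of TIF34, -0.17, was lost without control replicate 3 (adjusted p = 0.0556).

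Of the 3 eIF2 genes, 1 was lower at 120 min, and 1 was lower and 1 higher at 180 min. For so few genes the 180 min counts are near the 34.3% lower and 27.1% higher over all probe sets. SUI3 encodes the beta subunit. Arrays of SUI3 at 120 min read 10.69, 10.70 and 10.64 in the control, 10.68, 10.67 and 10.62 at 1 mg/L and 10.22, 10.07 and 10.14 at 5 mg/L. After 180 min the values were 10.59, 10.68 and 10.59 in the control, 10.72, 10.56 and 10.59 at 1 mg/L and 10.20, 10.09 and 10.04 at 5 mg/L. All 5 mg/L arrays of SUI3 lay below all others of their time, with differences of -0.53 at 120 min and -0.51 at 180 min (SE 0.06, adjusted p = 5.4e-07 and 8.35e-07). SUI2, which encodes the alpha subunit that the kinase Gcn2 phosphorylates, averaged 10.31, 10.24 and 10.14 at 120 min and 10.14, 10.26 and 10.13 at 180 min. It was not called, with differences of -0.16 at 120 min and -0.01 at 180 min. GCD11, which encodes the GTP-binding gamma subunit, averaged 10.70, 10.69 and 10.81 at 120 min and 10.57, 10.64 and 10.76 at 180 min. GCD11 was not called at 120 min (0.11) and was higher at 180 min (0.19, adjusted p = 0.0215), a value that turned to -0.049 with poly-A scaling. That call was lost without control replicate 3 or 5 mg/L replicate 1 (adjusted p 0.0563 to 0.102).

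Of the 5 eIF2B genes, 4 were lower at 120 min and 2 at 180 min, and none was higher. The 180 min count is near the 34.3% lower over all probe sets, and at 120 min that share was 32.7%. GCD7 (beta subunit), GCN3 (alpha) and GCD1 (gamma) were chosen for array values after their values were seen. At 120 min GCD7 read 8.56, 8.66 and 8.61 in the control, 8.68, 8.62 and 8.51 at 1 mg/L and 8.20, 8.05 and 8.14 at 5 mg/L. Its 180 min arrays read 8.74, 8.73 and 8.54 in the control, 8.62, 8.63 and 8.68 at 1 mg/L and 8.14, 7.91 and 7.94 at 5 mg/L. All 5 mg/L arrays of GCD7 lay below all others of their time. GCD7 had the lowest difference of the 39 genes at 180 min, -0.67 or 1.59-fold lower (SE 0.07, adjusted p = 6.2e-07), after -0.48 at 120 min. The 120 min arrays of GCN3 read 8.86, 8.92 and 8.77 in the control, 9.04, 9.01 and 8.86 at 1 mg/L and 8.61, 8.38 and 8.76 at 5 mg/L. At 180 min they read 8.89, 9.05 and 8.98 in the control, 8.79, 9.03 and 8.94 at 1 mg/L and 8.59, 8.45 and 8.44 at 5 mg/L. In GCN3 too the 5 mg/L arrays lay below all others, at 120 min with 8.76 on the highest against 8.77 on the nearest control array. GCN3 differed by -0.27 at 120 min and -0.48 at 180 min (adjusted p = 0.0145 and 0.000185), and its 120 min call was lost without control replicate 2 or 5 mg/L replicate 2 (0.0603 to 0.097) and with array weights (-0.13, adjusted p = 0.0554).

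Arrays of GCD1 at 120 min read 9.65, 9.56 and 9.62 in the control, 9.44, 9.50 and 9.56 at 1 mg/L and 9.03, 9.11 and 9.24 at 5 mg/L. The arrays of 180 min read 9.37, 9.27 and 9.31 in the control, 9.37, 9.21 and 9.36 at 1 mg/L and 9.04, 9.24 and 9.22 at 5 mg/L. The 5 mg/L arrays of GCD1 lay below all others at 120 min and below the control but among the 1 mg/L arrays at 180 min. GCD1 was lower at 120 min (-0.48, adjusted p = 1.13e-05) and not called at 180 min (-0.15, adjusted p = 0.0645). Its control mean was 9.61 at 120 min and 9.32 at 180 min, and its 5 mg/L mean was 9.13 and 9.17. GCD2 (delta) averaged 9.32, 9.36 and 9.12 at 120 min and 8.98, 9.09 and 8.98 at 180 min. GCD6 (the catalytic epsilon subunit) averaged 9.48, 9.51 and 9.45 at 120 min and 9.40, 9.40 and 9.34 at 180 min. GCD2 was lower at 120 min (-0.20), a call lost without control replicate 1 or 3 or 5 mg/L replicate 1 (adjusted p 0.0686 to 0.104), and GCD6 was called at neither time (-0.04 at 120 min and -0.06 at 180 min).

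Among the other initiation factors, TIF4631, which encodes eIF4G1, was lower at 120 min and TIF5 was higher at 180 min. TIF4631 averaged 9.88, 9.84 and 9.61 at 120 min and 9.66, 9.67 and 9.67 at 180 min. Its differences were -0.27 at 120 min and 0.00 at 180 min, the first with an adjusted p of 0.00184. TIF5 encodes eIF5, which triggers GTP hydrolysis by eIF2. It averaged 10.15, 10.04 and 10.18 at 120 min and 9.99, 10.01 and 10.21 at 180 min. TIF5 differed by 0.03 at 120 min and 0.21 at 180 min (adjusted p = 0.00691 at 180 min), and that value was -0.025 with poly-A scaling. SUI1, which encodes the start-codon factor eIF1, averaged 10.97, 10.96 and 10.95 at 120 min and 11.07, 10.99 and 11.01 at 180 min. TIF3, which encodes eIF4B, averaged 10.81, 10.81 and 10.78 at 120 min and 10.55, 10.64 and 10.66 at 180 min. SUI1 and TIF3 were called at neither time, with intervals over both times from -0.19 to 0.11 and from -0.18 to 0.26.

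**Figure D3:**
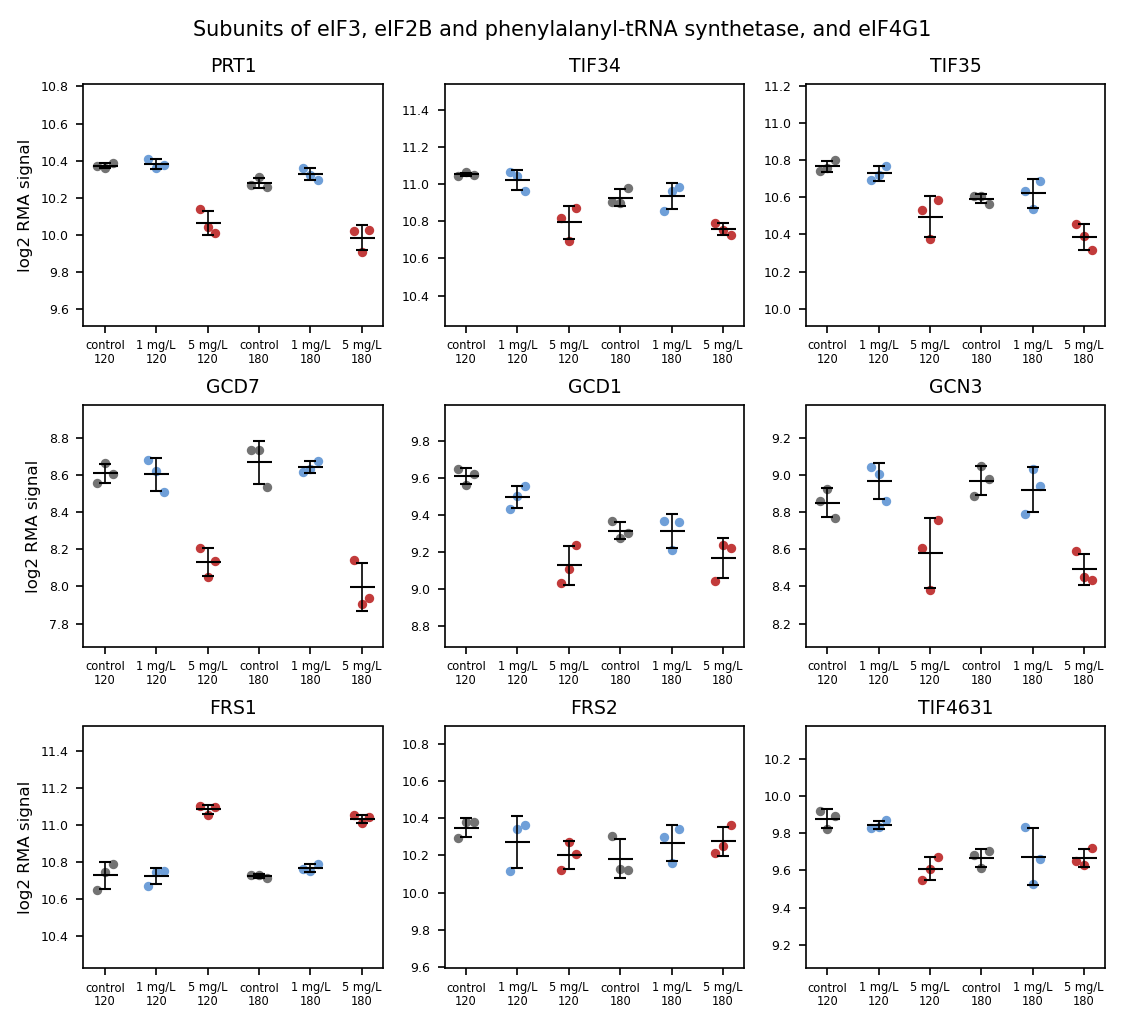
Log2 signal (vertical axes, each panel spanning 1.3 log2 units) of the eIF3 genes PRT1, TIF34 and TIF35, the eIF2B genes GCD7, GCD1 and GCN3, the phenylalanyl synthetase genes FRS1 and FRS2, and TIF4631 on every array, by group (horizontal axis), with colours and bars as in the plot of DED81 and 8 other genes. In the deposited scaling the 5 mg/L points (red) of FRS1 lie above all others of their time, those of GCD7 below, and those of TIF4631 below at 120 min but among the others at 180 min.

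Of the 4 elongation factors, 3 were lower at 120 min and 2 at 180 min, and none was higher. Beside these counts, 32.7% and 34.3% of all probe sets were lower at 120 and 180 min. EFB1 encodes eEF1B alpha, the subunit that exchanges the nucleotide of eEF1A. At 120 min EFB1 read 12.31, 12.31 and 12.33 in the control, 12.24, 12.31 and 12.35 at 1 mg/L and 12.06, 12.02 and 12.02 at 5 mg/L. After 180 min the values were 12.30, 12.27 and 12.24 in the control, 12.33, 12.25 and 12.30 at 1 mg/L and 12.06, 11.99 and 12.09 at 5 mg/L. All 5 mg/L arrays lay below all others of their time, and the differences were -0.29 at 120 min and -0.23 at 180 min (adjusted p = 4.55e-05 and 0.000416).

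CAM1 and TEF4 are paralogs that both encode eEF1B gamma. The 120 min arrays of CAM1 read 10.03, 10.04 and 10.02 in the control, 10.08, 10.13 and 10.06 at 1 mg/L and 9.84, 9.78 and 9.74 at 5 mg/L. Its 180 min arrays read 10.20, 10.18 and 10.16 in the control, 10.09, 10.15 and 10.20 at 1 mg/L and 9.86, 9.69 and 9.81 at 5 mg/L. No 5 mg/L array of CAM1 reached an array of another group of its time. CAM1 fell by 0.25 at 120 min and by 0.39 at 180 min (SE 0.05, adjusted p = 0.000506 and 5.02e-06). Arrays of TEF4 at 120 min read 11.89, 11.86 and 11.92 in the control, 11.77, 11.85 and 11.82 at 1 mg/L and 11.78, 11.74 and 11.76 at 5 mg/L. At 180 min they read 11.68, 11.73 and 11.75 in the control, 11.74, 11.71 and 11.76 at 1 mg/L and 11.75, 11.72 and 11.62 at 5 mg/L. The 5 mg/L arrays of TEF4 lay below the control at 120 min, met the 1 mg/L arrays there, and overlapped both other groups at 180 min. TEF4 was lower at 120 min (-0.13, adjusted p = 0.0241), a call lost without control replicate 1 or 3 or 5 mg/L replicate 2 (0.0549 to 0.0883) with renewed quantile normalization (0.0805) and in the fit of the compared arrays alone (0.0578), and not called at 180 min (-0.02). From 120 to 180 min in the control, CAM1 moved by 0.15 and TEF4 by -0.17, and the difference between the paralogs was not tested. By limma the CAM1 call over time was lost without any 1 of the 6 control arrays (adjusted p 0.0748 to 0.125). That of TEF4 was lost without control replicate 3 of 120 min or replicate 1 of 180 min (0.0509 to 0.0701). YEF3, which encodes eEF3, averaged 12.43, 12.44 and 12.31 at 120 min and 12.26, 12.33 and 12.34 at 180 min. It was called at neither time (-0.12 at 120 min and 0.08 at 180 min).

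At 1 mg/L none of the 39 genes was called at either time, by limma over all 18 arrays. None had an unadjusted p under 0.05 either. Differences from the control ran from -0.11 to 0.12 at 120 min and from -0.07 to 0.13 at 180 min. The 95% intervals reached from -0.29 to 0.30 and from -0.23 to 0.31, so changes up to those bounds are not excluded for single genes at this replicate number. Over all probe sets 0.455% were called at 120 min and 0.109% at 180 min. With array weights SUI2 alone was called at 180 min.

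Set against 1 mg/L, which uses the same 5 mg/L arrays as the comparison with the control, 24 genes were lower and 2 higher at 5 mg/L after 120 min, beside 33.1% lower and 24.3% higher over all probe sets. After 180 min 22 were lower and 3 higher, beside 32.7% and 26.7%. The medians were -0.23 and -0.16. DED81 differed by -0.56 and -0.42, and GCD7 by -0.47 and -0.65. NIP1 was higher by 0.69 and 0.83, FRS1 by 0.36 and 0.26, and at 120 min both turned negative with poly-A scaling, to -0.15 and -0.47. With that scaling neither gene was called at either time. THS1, not called against the control, was lower against 1 mg/L at both times (-0.13 and -0.14), with adjusted p of 0.0624 to 0.228 and 0.0638 to 0.121 without single arrays that ended the calls.

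In the control, 28 of the 39 genes were not called between 120 and 180 min. Of the others 10 fell and 1 rose, beside 12.1% lower and 11.1% higher over all probe sets, and the median difference was -0.13 against 0.00 over all probe sets. The 10 were GCD2 (-0.34), NIP1 (-0.31), GCD1 (-0.29), TIF3 (-0.26), TIF4631 (-0.21), ALA1 (-0.21), RPG1 (-0.20), KRS1 (-0.18), TIF35 (-0.17) and TEF4 (-0.17), of which 7 were initiation factors, and CAM1 rose by 0.15. Of these 11 calls, those of GCD1 and GCD2 held without each array in turn, and with poly-A scaling none of the 11 was called. The count of lower genes was 5 without 120 min replicate 1, 3 without 120 min replicate 3, 4 without 180 min replicate 2 and 5 without 180 min replicate 3.

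The changes over time within each dose were comparisons chosen once values had been seen. At 1 mg/L, GCD2 alone was lower at 180 than at 120 min (-0.26, adjusted p = 0.0267), beside 6.75% lower and 3.46% higher over all probe sets, and the median of the 39 was -0.05. That call was lost without 1 mg/L replicate 1 or 3 of 120 min or replicate 2 or 3 of 180 min, and 5 genes were called without replicate 1 of 180 min. The time differences of the control and of 1 mg/L correlated across the 39 genes with a Pearson r of 0.79 and a Spearman rho of 0.78, beside an r of 0.84 over all probe sets. At 5 mg/L none of the 39 was called by limma and none had an unadjusted p under 0.05, beside 0.527% lower and 0.364% higher over all probe sets. The 5 mg/L differences over time ran from -0.15 to 0.10, with 95% intervals from -0.30 to 0.24.

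The test of whether the 5 mg/L effect differed between the times called 3 of the 39 genes, beside 15% of all probe sets. All 3 had a fall at 120 min that was smaller at 180 min: RPG1 by 0.28 (SE 0.07, adjusted p = 0.015), GCD1 by 0.33 (SE 0.09, adjusted p = 0.0277) and DED81 by 0.21 (SE 0.07, adjusted p = 0.0463). For GCD1 and RPG1 the control itself fell with time, by 0.29 and 0.20, while the 5 mg/L means moved by 0.04 and 0.08. The call of RPG1 was lost without control replicate 2 of 180 min (adjusted p = 0.0504), that of GCD1 without each of 7 of the 12 arrays, and that of DED81 without each of 11. With array weights 16 genes were called and with poly-A scaling none. For 1 mg/L the same test called 0 of the 39 and 0% of all probe sets by limma, with none of the 39 at an unadjusted p under 0.05.

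**Figure D4:**
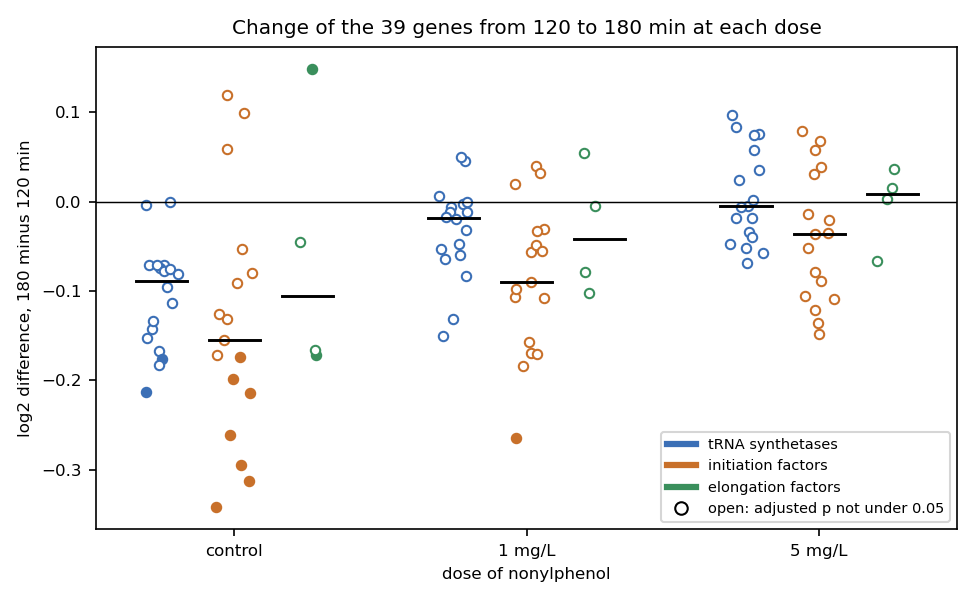
Log2 difference between 180 and 120 min (vertical axis) for each gene, by dose (horizontal axis: control, 1 mg/L and 5 mg/L). Within each dose blue, orange and green columns hold synthetases, initiation factors and elongation factors. Each point is 1 gene, open points were not called and black lines are medians. In the deposited scaling the control points reach -0.34 (GCD2), while at 5 mg/L all points lie between -0.15 and 0.10.

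A further 43 translation genes, of 47 listed, were matched on the arrays. At 120 min 6 were higher and 19 lower, with a median of -0.11, and at 180 min 9 were higher and 16 lower, with a median of -0.12. Over all probe sets 25.4% were higher and 32.7% lower at 120 min, and 27.1% and 34.3% at 180 min. The 16 of 43 lower at 180 min are near that share, and the counts of the 5 lists that follow, of 4 to 14 genes each, are to be read against the same shares. Probe sets for TIF2 (eIF4A), TEF2 (eEF1A) and EFT2 (eEF2) are of a type that a near-identical gene copy can share, so each value may hold both copies. TEF2 differed by -0.01 and 0.06 at the 2 times and TIF2 by -0.04 and 0.07, none called, and EFT2 was lower at 120 min (-0.17). Poly-A scaling lowers every difference from the control given below by 0.78 at 120 min and 0.24 at 180 min. Rises that keep their sign therefore shrink as well.

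The other cytosolic synthetase genes and a cofactor gave 1 higher and 2 lower of 4 at both times. YHR020W, the prolyl enzyme and the annotated neighbour of DED81, was lower by 0.45 and 0.30 at 120 and 180 min. YDR341C, the arginyl enzyme, differed by -0.35 and -0.39. GRS2, a second glycyl synthetase gene beside GRS1, was higher by 0.29 at both times, and at 120 min this turned to -0.49 with poly-A scaling. The 120 min call of GRS2 was lost without control replicate 2 or 5 mg/L replicate 2 (adjusted p = 0.0566 and 0.0717). ARC1, the cofactor that binds the methionyl and glutamyl enzymes, was not called (-0.11 and -0.03).

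Of the 14 synthetases that serve mitochondria alone, 6 were lower and 1 higher at 120 min, and 8 were lower and 1 higher at 180 min. MSM1, the methionyl enzyme, differed by -0.44 and -0.48. MSY1, the tyrosyl enzyme, was higher by 0.49 and 0.26, and at 120 min this turned to -0.29 with poly-A scaling. DIA4, the likely seryl enzyme, was lower at 120 min (-0.32), and MSW1 (tryptophanyl, -0.49) and MSE1 (glutamyl, -0.45) were among the 8 at 180 min.

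Of 10 other initiation factors, 5 were lower and 1 higher at 120 min, and 3 were lower and 2 higher at 180 min, the latter at or below the 34.3% and 27.1% over all probe sets. DED1, an RNA helicase that opens the mRNA leader for scanning, fell by 0.86 at 120 min (SE 0.13, adjusted p = 3.29e-05), a 1.81-fold drop. Its 120 min arrays read 10.38, 10.41 and 10.54 in the control and 9.44, 9.86 and 9.47 at 5 mg/L, with no overlap. At 180 min it was not called (-0.28, adjusted p = 0.0728). TIF4632, the second eIF4G gene, and PAB1, the poly(A)-binding protein, were lower at 120 min by 0.42 and 0.33. At 180 min TIF11 (eIF1A) and TIF6 (eIF6) were lower by 0.25 and 0.23, and RLI1, an ATPase of ribosome recycling, was higher by 0.35. The TIF11 call was lost without any control replicate, without 5 mg/L replicate 1 or 2 (adjusted p 0.0726 to 0.162) and with renewed quantile normalization, and that of TIF6 without control replicate 2 or 5 mg/L replicate 3 (0.0537 and 0.139).

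Of 8 other elongation and termination factors, 3 were higher and 3 lower at 120 min, and 4 higher and 2 lower at 180 min, beside 27.1% and 34.3% over all probe sets. HEF3 is the paralog of YEF3. Its arrays read 5.37, 5.39 and 5.43 in the 120 min control and 6.41, 6.39 and 6.32 at 5 mg/L, and 5.34, 5.42 and 5.44 against 6.16, 6.21 and 6.21 at 180 min. For HEF3 the 5 mg/L arrays lay above all control arrays, a 1.97-fold rise at 120 min (log2 0.98, SE 0.07, adjusted p = 9.05e-09) and a 1.73-fold rise at 180 min. Most of the 120 min rise is removed by poly-A scaling, which lowers it by 0.78. ANB1, the eIF5A gene known for expression under low oxygen, was higher by 0.53 at 120 min, and this turned to -0.25 with poly-A scaling. NEW1, an ATPase of elongation and termination, fell by 0.68 at 120 min and by 0.27 at 180 min. The release factor genes had opposite signs in the deposited scaling at 180 min, SUP35 (eRF3) at 0.68 and SUP45 (eRF1) at -0.34. Their 120 min means in that scaling went opposite ways too. From the control to 5 mg/L, SUP35 went from 10.56 to 10.98 and SUP45 from 10.58 to 10.24.

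Of 7 regulators of initiation, 3 were lower at 120 min, and 1 was lower and 1 higher at 180 min, both below the 34.3% and 27.1% over all probe sets. GCN20, which with GCN1 activates the eIF2 kinase GCN2, fell by 0.56 and 0.65 at the 2 times (SE 0.05, adjusted p = 6.24e-08 and 1.26e-08). GCN2 and GCN1 were lower at 120 min by 0.34 and 0.17, and the GCN1 call was lost without control replicate 1 or 3, without 5 mg/L replicate 1 or 3 (adjusted p 0.0538 to 0.102) and with renewed quantile normalization. EAP1, which binds the cap-binding factor eIF4E, was higher by 0.41 at 180 min. GCN4, the amino acid control activator whose output is known to be set mainly at translation, was not called, with mRNA differences of -0.08 and 0.09.

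**Figure D5:**
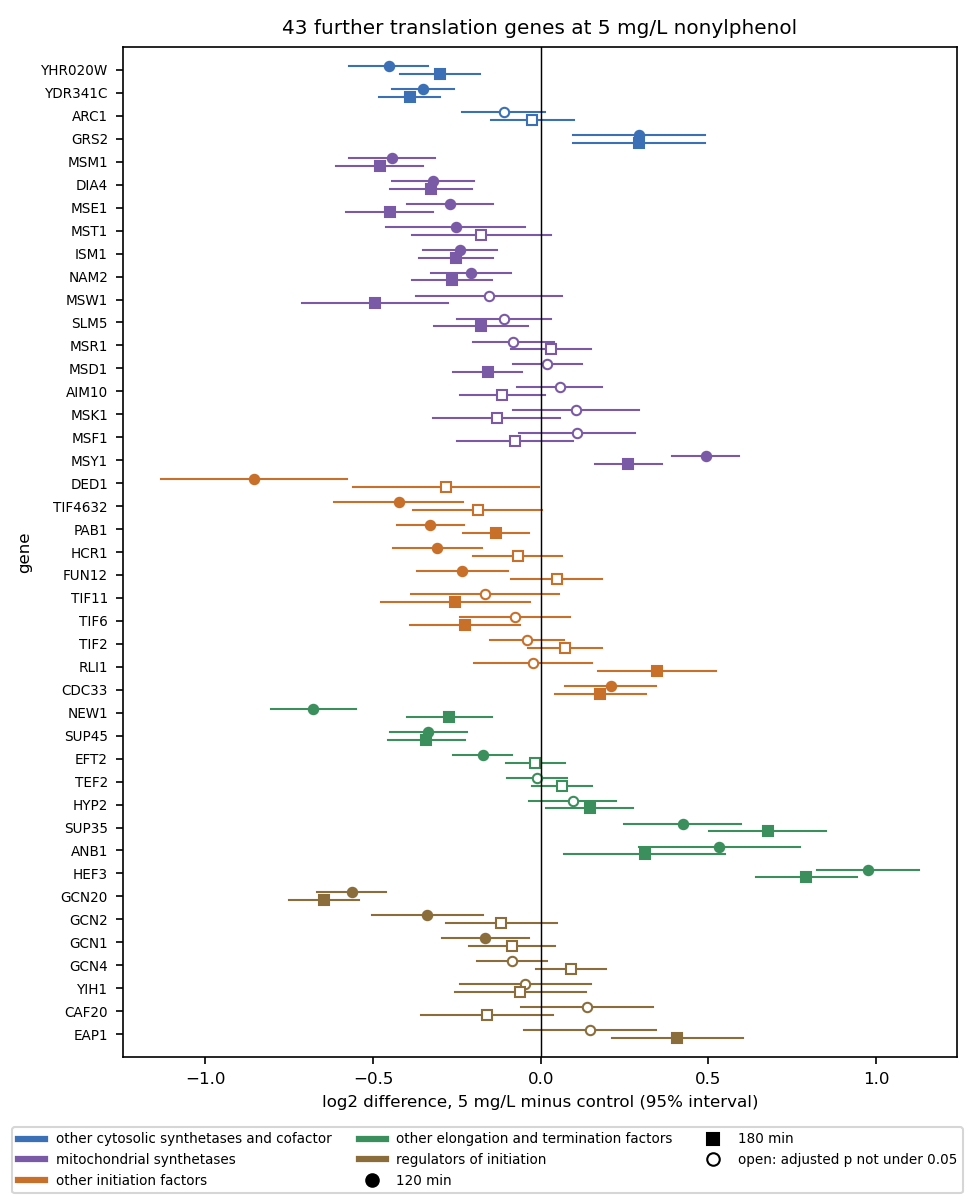
Log2 difference between 5 mg/L nonylphenol and control for the 43 further translation genes (vertical axis), at 120 min (circles) and 180 min (squares), with 95% intervals from limma; open symbols were not called. In the deposited scaling HEF3 reaches 0.98 and DED1 -0.86 at 120 min, and the other values lie between these.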

How the data were processed

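The deposited values were RMA signals on a log2 scale, 1 per probe set and array; per the submitters' processing notes the tools were RMA, affy and limma, with versions not given in the sources used here. Their log2 base was read from the deposited values, which ran from 0.41 to 13.74. Per the labels' protocols, biotin-labelled aRNA was made from total RNA. Of 10928 probe sets, 5498 matched 5449 S. cerevisiae genes in the gene table supplied (12 symbols updated), and 1747 of another yeast species gave the background as their percentile 95.

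A group-means model was fitted to all 18 arrays with limma 3.58.1 in R 4.3.3 (eBayes without trend or robust settings), with Benjamini-Hochberg adjustment over the 5498 probe sets and a threshold of 0.05. The fit was tested on simulated data with independent noise and no shift common to an array, so that test does not bear on the scaling. Separate cultures are stated only as biological replicates, so p-values reflect the spread between arrays, whose number limits the precision. All 39 genes were named with group means; array values are given for the 3 genes of each class with the largest 120 min difference at 5 mg/L, for CAM1 and TEF4, and for genes said to be chosen later. The time comparisons within 1 and 5 mg/L were added once values had been seen. Of each further list, up to 3 called genes with the largest difference per time were named, and TIF2, TEF2, EFT2, ARC1, GCN4, the array values of DED1 and HEF3 and single values of named genes at the other time were added after their values were seen. Members and lists were chosen with earlier results of these data known. Alternatives covered the arrays in the fit, array weights, eBayes settings, a filter on dim probe sets, renewed quantile normalization, poly-A scaling, the replicate block and each array left out.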

Additional observations from a re-analysis of the deposited data

Results flagged for a closer look

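In 8 genes the effect of 5 mg/L nonylphenol differed between the times, by limma's test of the difference itself (effect at 180 min minus effect at 120 min, log2). They were 3 of the 39 genes and 5 of the 43 further genes, beside 15% of all probe sets, a share that neither count exceeds. Among the 39 genes these were GCD1 at 0.33 (adjusted p = 0.0277), RPG1 at 0.28 (0.015) and DED81 at 0.21 (0.0463), each lower at 120 min by more than at 180 min. Among the further translation genes the difference was 0.57 for DED1 (0.0472), 0.41 for NEW1 (0.00573), 0.37 for RLI1 (0.0445), 0.28 for FUN12 (0.0468), which encodes eIF5B, and -0.23 for MSY1 (0.0301). Single outlying arrays were not tested, since each group had 3 arrays.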

How the results depend on the processing

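The single-gene values cover only calls of the main fit, so calls gained under another setting do not appear among them. Under settings other than leaving out an array, 926 of these values kept direction and side of the threshold, 94 lost their call and 9 changed sign. Of the 94 lost calls, 72 came with poly-A scaling. With each array left out in turn, 787 kept both and 113 lost their call. With poly-A scaling the 5 mg/L against control counts were 0 higher and 37 lower at 120 min and 0 higher and 2 lower at 180 min, and against 1 mg/L 0 higher and 37 lower at 120 min and 0 higher and 1 lower at 180 min. The 9 that changed sign did so with poly-A scaling: FRS1 (-0.43 against control, -0.47 against 1 mg/L) and NIP1 (-0.16 and -0.15) at 120 min, ANB1 (-0.25), GRS2 (-0.49) and MSY1 (-0.29) at 120 min, and GCD11 (-0.049) and TIF5 (-0.025) at 180 min. Poly-A scaling also left 0 calls in the difference between times at 5 mg/L, 0 higher and 0 lower in the control over time, and 0 lower in 1 mg/L over time. With array weights the difference between times at 5 mg/L had 16 calls, 1 mg/L against control at 180 min had 1, the control over time had 24 lower, 1 mg/L over time had 1 higher and 6 lower, and 5 mg/L over time had 1 higher and 3 lower. With the arrays of the compared groups alone, the difference between times at 5 mg/L had 5 calls, the control over time had 16 lower and 1 mg/L over time had 0 lower. Residuals of same-numbered arrays of different groups correlated from -0.46 to 0.52, with a median of 0.00. Those of differently numbered arrays ran from -0.61 to 0.61, with a median of -0.03. With 3 arrays a group this check cannot exclude a pairing by number. With the replicate number as a block, the counts were 2 higher and 26 lower at 120 min and 4 higher and 19 lower at 180 min for 5 mg/L against control, 0 higher in the control over time and 2 lower in 1 mg/L over time, and the block ended the 120 min call of MES1 (adjusted p = 0.0514). With each array left out, calls ranged from 0 to 3 for the difference between times at 5 mg/L, from 0 to 0 higher and from 3 to 9 lower in the control over time, and from 0 to 5 lower in 1 mg/L over time. The counts of the comparison of 5 mg/L with control stayed within 1.5 times under all settings run other than poly-A scaling. The causes of these shifts were not tested. Promoter motifs were not run.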
